A study of Mus musculus with 2 samples.

Results

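Eef1a1 and Eef1a2 encode the 2 forms of elongation factor eEF1A. They were chosen by symbol and not by a rule on measured values, though with earlier results of these data known. They are 2 of the 55536 annotated genes in the deposited tables. Total RNA was sequenced from heart tissue of male B6CASTF1/J mice, the F1 hybrid of C57BL/6J and CAST/EiJ, at 10 days of age. There are 2 libraries, labelled as biological replicates 1 and 2, which form 1 untreated group. Each was made from 300 ng of RNA by a stranded protocol that removes ribosomal RNA, with ERCC spike-in RNAs added. The libraries held 38851510 and 37907582 expected counts. The labels number the animals separately but give a single donor record for both. The spread below is that of 2 libraries, and part of it may be technical.

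eEF1A binds GTP and carries each aminoacyl-tRNA to the ribosome during protein synthesis. Eef1a1 is the form made in most cells, and Eef1a2 is known as the form of adult heart muscle, skeletal muscle and neurons, where it takes over from Eef1a1 after birth. These libraries are of 1 age, so a switch over time cannot be measured here, and the values give only the balance of both forms at this age. In whole tissue, fewer cells of a type and less RNA per cell cannot be told apart.

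The coding sequences show where reads can separate the genes. Eef1a1 has 462 codons before its stop codon and Eef1a2 has 463. Aligned from the start codon without gaps, 79.9% of 1386 bases were identical. Of 462 codon pairs, 241 differed, 205 of them without changing the encoded residue, and 225 of the 278 differing bases stood at the third base of a codon. The longest identical run was 23 bases. It is shown by the last 90 coding bases of exon 3, in which capitals mark the 12 bases that differ between the paralogs, and in the pseudogene Gm13456 the 1 base that differs from Eef1a1. The Eef1a1 stretch lies at chr9:78480241-78480330 and the Eef1a2 stretch at chr2:181153651-181153740, both on the minus strand. The Gm13456 stretch lies at chr2:40555961-40556050 on the plus strand, all in GRCm38.
Eef1a1: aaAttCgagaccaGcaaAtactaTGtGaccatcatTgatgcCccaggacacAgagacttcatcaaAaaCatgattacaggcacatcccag
Eef1a2: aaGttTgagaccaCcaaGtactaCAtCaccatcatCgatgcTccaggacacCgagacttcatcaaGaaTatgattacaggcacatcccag
Gm13456: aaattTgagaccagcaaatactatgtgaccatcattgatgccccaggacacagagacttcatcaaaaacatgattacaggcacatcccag
The run fills the last 21 bases of this exon and goes 2 bases into the next. Over whole transcripts the paralogs shared none of their words of 31 bases, of which Eef1a1-201 has 1764 and Eef1a2 has 2054.

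The 150 bases before each RefSeq start are shown to set the composition of these stretches side by side for a pair of genes that differ in level. They lie at chr9:78481725-78481874 and chr2:181157016-181157165 on the minus strand of GRCm38.p6. Capitals mark the GC box GGGCGG, read on either strand.
Eef1a1 upstream: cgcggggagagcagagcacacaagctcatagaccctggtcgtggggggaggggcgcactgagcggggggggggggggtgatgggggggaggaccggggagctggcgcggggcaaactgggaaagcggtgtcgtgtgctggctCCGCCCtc
Eef1a2 upstream: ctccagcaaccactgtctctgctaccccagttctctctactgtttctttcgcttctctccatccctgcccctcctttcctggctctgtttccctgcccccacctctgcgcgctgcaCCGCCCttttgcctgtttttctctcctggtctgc
Over 250 upstream bases the GC content was 68.0% for Eef1a1 and 54.0% for Eef1a2, and the median of 32851 RefSeq promoters was 52.4%. Eef1a1 had 2 GC boxes and Eef1a2 had 1 in these windows, and 32.7% of all promoters held at least 1. Neither upstream window held a TATA box on either strand, and 11.5% of promoters held at least 1. It was searched as TATAAAA and also as TATAAAT, with the further forms TATATAA and likewise TATATAT. Past the RefSeq start, Eef1a1 held 1 of these forms, at base 24. These data do not show where its transcripts start, so the upstream window may be misplaced.

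Eef1a1 was the more abundant form in both libraries. Eef1a1 (ENSMUSG00000037742.14, chr9:78478449-78489151, minus strand, mm10) had 68419 expected counts in replicate 1 and 60712 in replicate 2. Its level per length was 1500 TPM in replicate 1 and 1239 TPM in replicate 2, a mean of 1369 ± 185 TPM (SD, n = 2). It ranked 33rd of 21923 protein-coding genes by mean TPM. Eef1a2 (ENSMUSG00000016349.10, chr2:181147653-181157014, minus strand) had 16034 and 14669 expected counts in replicates 1 and 2. Its level was 267 TPM in replicate 1 and 231 TPM in replicate 2, a mean of 249 ± 25.8 TPM (SD, n = 2), which ranked 245th. Both genes read higher in replicate 1 on the TPM scale. The median gene did so too, with a log2 TPM ratio of -0.21 for replicate 2 over replicate 1. The ranges of the 2 genes lay far apart.

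The deposited credibility bounds were narrow beside the spread between libraries. For Eef1a1 they ran from 1450 to 1491 TPM in replicate 1 and from 1199 to 1232 TPM in replicate 2. For Eef1a2 they ran from 257 to 265 TPM and from 222 to 230 TPM in the same order. The bounds of the 2 libraries did not overlap for either gene. The point TPM lay just above the upper bound in all 4 cases. Among genes of at least 10 TPM this was so for 2.89% in replicate 1 and 2.29% in replicate 2, and among genes with at least 10000 counts for 44.0% and 37.3%.

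**Figure D1:**
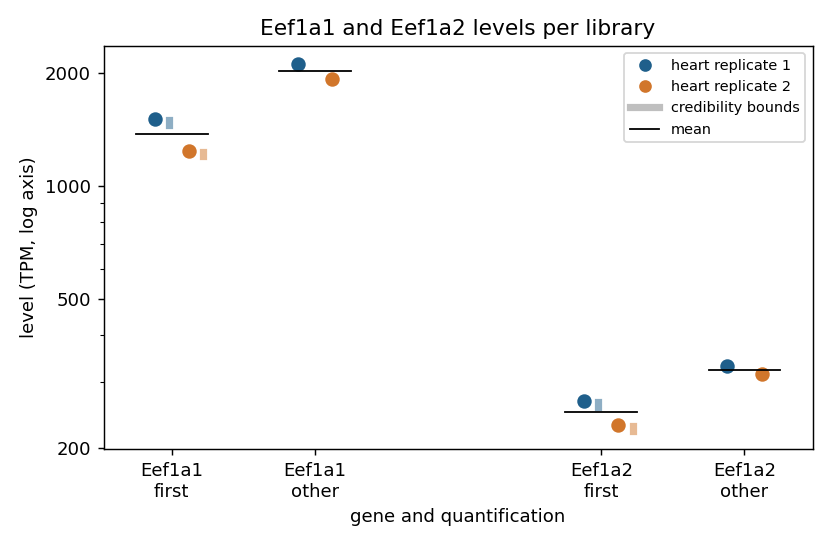
Level of each gene in TPM (log axis) by gene and quantification, with a point for each library, thick bars for the deposited credibility bounds of the first quantification and a thin line for the mean. In each quantification both Eef1a1 points lie above both Eef1a2 points, and the Eef1a1 level moves from 1369 TPM in the first to 2014 TPM in the other.

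In the order of levels, Eef1a1 stood among genes of similar abundance. Cox4i1, a subunit of cytochrome c oxidase, was higher at 1586 ± 85.5 TPM (SD, n = 2), and its libraries did not overlap those of Eef1a1. Atp5a1 and Atp5g3, subunits of ATP synthase, stood next above it, and the mitochondrial gene mt-Nd6, the glycolytic enzyme gene Gapdh and the muscle creatine kinase gene Ckm stood next below. These 5 spanned 1287 to 1450 TPM and overlapped Eef1a1 in their ranges. The neighbours of Eef1a2 were Map1lc3a, Naca, Dlst, Rps27a, Actg1 and Ndufs7. All 6 lay between 246 and 252 TPM and overlapped Eef1a2, so the order among them does not exceed the spread.

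Per length, Eef1a1 exceeded Eef1a2 by 5.61-fold in replicate 1 and 5.37-fold in replicate 2, a mean log2 ratio of 2.46 ± 0.05 (SD, n = 2). Taking the credibility bounds of both genes, the ratio ran from 5.46 to 5.79 in replicate 1 and from 5.22 to 5.54 in replicate 2. Eef1a2 therefore made up 15.1% and 15.7% of the summed level of both forms, a mean of 15.4% ± 0.41 (SD, n = 2). In the other quantification the ratio was 6.35-fold and 6.11-fold, and the Eef1a2 share was 13.6% and 14.1%. With the longest transcript of each gene alone, an alternative chosen after seeing the data, the ratio fell to 4.64-fold and 4.54-fold in the first quantification and to 3.80-fold and 3.72-fold in the other. The direction was the same in both libraries under each of these settings, and the size moved with the setting. The quantifications divided Eef1a1 reads differently among transcripts. Their effective lengths, by which counts are scaled to TPM, also differed. In replicate 1 these were 1695 bases in the first and 1456 in the other for Eef1a1-201, and 646 and 407 for Eef1a1-208. For Eef1a2 they were 1985 and 1746 bases. How much each difference moved the ratio was not tested.

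Eef1a2 has 1 annotated transcript, of 8 exons and 2084 bases, which held all its counts. Eef1a1 has 8. Eef1a1-201, of 8 exons and 1794 bases, held 92.8% and 93.7% of the gene's expected counts in replicates 1 and 2. On the TPM scale it held 82.6% and 84.5%, and in the other quantification 59.8% and 60.8%. Most of the remainder went to Eef1a1-208, a coding transcript of 745 bases and 3 exons at chr9:78479915-78480841 whose first exon begins inside the first intron of Eef1a1-201. Of its words of 31 bases, 21.1% do not occur in Eef1a1-201.

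Eef1a1-208 had 181.7 TPM in replicate 1 and 147 TPM in replicate 2, which is 12.1% and 11.9% of the gene's TPM. In the other quantification it had 808 and 739 TPM, or 38.4% in each library. Its share of the gene's counts was smaller, at 5.19% and 5.01% in the first quantification and 15.1% and 15.0% in the other. The libraries thus lay close together within each quantification and the quantifications lay far apart. Eef1a1-207, which has an exon far upstream, had 412 expected counts in replicate 1 and 71.0 in replicate 2. The other quantification gave it 289 estimated counts in replicate 1 and close to 0 in replicate 2. The 5 transcripts annotated without a coding sequence summed to 61.9 and 41.5 TPM, or 4.13% and 3.35% of the gene, and to 18.5 and 15.1 TPM in the other quantification. Of these, Eef1a1-204 was the highest in the first quantification. It had 42.7 TPM in replicate 1 and 25 TPM in replicate 2, and 3.12 and 5.17 TPM in the other quantification. The retained-intron transcript Eef1a1-203 had 2.84 and 1.44 TPM in the first quantification, and 6.10 and 4.25 TPM in the other. Eef1a1-206 had 9.27 and 9.23 TPM in the first, and 4.25 and 2.21 TPM in the other. Eef1a1-202 and Eef1a1-205 lay between 1.45 and 4.4 TPM in the first and between 1.21 and 2.66 TPM in the other.

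**Figure D2:**
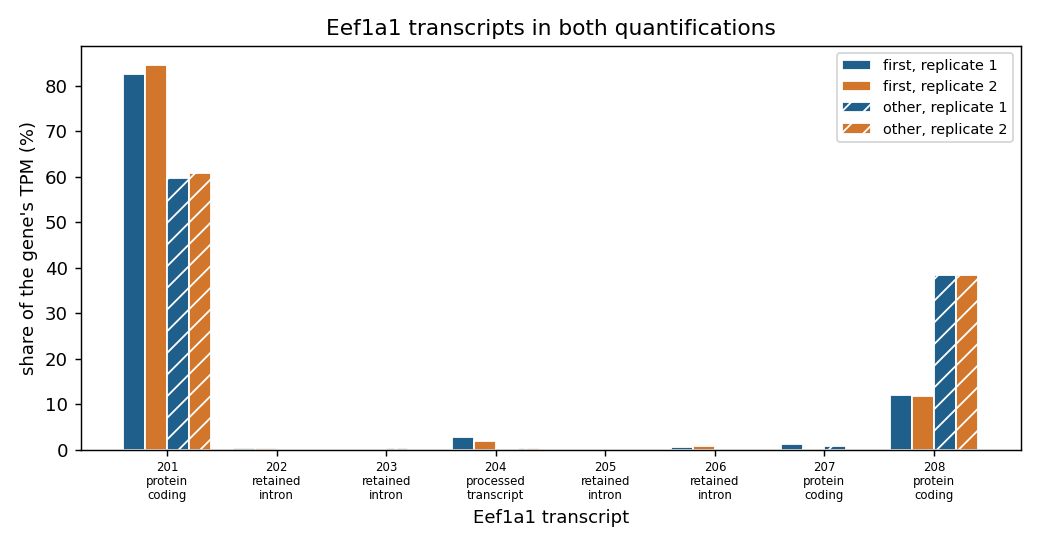
Share of the Eef1a1 TPM (percent) held by each of its 8 annotated transcripts, with a bar for each library, plain for the first quantification and hatched for the other. Eef1a1-201 leads in all 4 cases, and Eef1a1-208 stands at 12.1% and 11.9% in the first quantification and at 38.4% in both libraries of the other.

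Copies of Eef1a1 in the genome could take or give reads. Of all other annotated genes, 27 shared at least 1 word of 31 bases with Eef1a1 and 0 did with Eef1a2. They are 22 processed pseudogenes and 5 genes annotated as miRNAs. Together they held 2582 counts in replicate 1 and 2363 in replicate 2, which is 3.77% and 3.89% of the count of Eef1a1. Only 3 shared at least 50% of their words. Gm13456, the pseudogene shown above, shared 64.9% and had 471 and 419 counts, and Gm26377 and Gm26384 had 0 counts in both libraries. Gm26377 lies inside the 3′ UTR of Eef1a1, and no annotated gene overlaps Eef1a2. Gm6548 had the highest count of the 27, 987 and 920 expected counts. AC133509.1 followed with 802 and 744, and AC124512.1 and Mir703, in order after Gm13456, had 133 and 116 counts and 116 and 115 counts. Since reads can be divided between near-identical copies in more than one way, the counts of these pseudogenes are uncertain.

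The other steps of elongation and termination gave the setting for these levels. Of the exchange complex eEF1B, which reloads eEF1A with GTP, Eef1b2 was at 168 ± 24.8 TPM, Eef1g at 107 ± 15.5 TPM and Eef1d at 88.2 ± 9.55 TPM (SD, n = 2). Vars, the valyl-tRNA synthetase that joins this complex, was at 12.8 ± 2.28 TPM. The sum of both eEF1A forms was 9.52 times the level of Eef1b2 in replicate 1 and 9.76 times in replicate 2. Eef2, the translocase that moves the ribosome along, was at 557 TPM in replicate 1 and 485 TPM in replicate 2. The eEF1A sum was 3.17 and 3.03 times that level. These ratios belong to the first quantification, and those of the other differ. There, Eef1a1 was at 2105 and 1924 TPM and Eef1a2 at 332 and 315 TPM in replicates 1 and 2. Eef1b2 was at 324 and 293 TPM and Eef2 at 613 and 587 TPM in the same order. Eif5a, which helps the ribosome through difficult peptide bonds, was at 184 ± 28.8 TPM.

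The release factor genes Etf1 and Gspt1 were at 30.9 and 28.3 TPM on average, and the rescue and recycling factors Hbs1l, Abce1 and Pelo at 22.1, 20.5 and 9.92 TPM. Eef2k, the kinase that inhibits eEF2, was at 15.7 TPM, and Eefsec, the selenocysteine counterpart of eEF1A, at 4.10 TPM in replicate 1 and 4.11 TPM in replicate 2. Eef1e1, a scaffold protein of the synthetase complex, was at 5.39 and 3.48 TPM. The second forms Eif5a2 and Gspt2 were low, at 1.42 and 0.43 TPM on average. Eef1akmt1, Eef1akmt2, Mettl13, Eef1akmt4 and Eef1akmt3 methylate eEF1A at different residues. Eef1akmt1 was the highest of them at 12.4 TPM and Eef1akmt3 the lowest at 0.05 TPM, with 4 counts in each library. Tufm, the mitochondrial counterpart of eEF1A, was at 95.1 ± 10.0 TPM (SD, n = 2), and Gfm1, Tsfm and Gfm2 were at 76.3, 20.9 and 15.6 TPM.

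**Figure D3:**
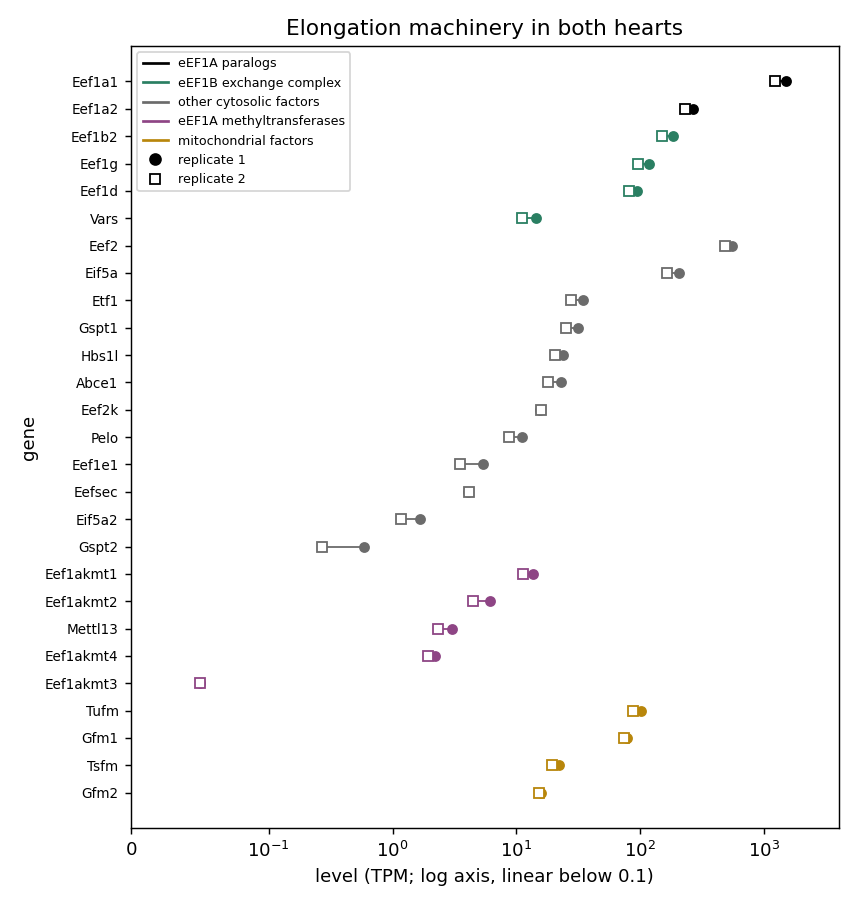
Level of each elongation, termination and modifying gene in TPM (log axis, linear below 0.1), with filled circles for replicate 1, open squares for replicate 2 and a color for each group. Eef1a1 is the highest of the genes plotted, Eef2 at 521 TPM is next, and Eef1a2 at 249 TPM lies above Eef1b2 at 168 TPM. The first quantification is plotted. In the other, Eef1a2 and Eef1b2 were closer, at 332 and 324 TPM in replicate 1 and 315 and 293 TPM in replicate 2.

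Beside 10 other paralog pairs of the translation machinery, the Eef1a2 share stood 7th of 11 by its mean in the first quantification. The highest mean shares were 41.0% ± 6.41 (SD, n = 2) for Eif4a2, 40.7% for Eif2s3y and 38.0% for Pabpc4, and their order was not the same in both libraries. Rpl22l1 held 32.4%. Rps27l held 18.2% and Eif4e3 17.8%. Rpl3l, the muscle form of a ribosomal protein, held 11.9% ± 0.44 (SD, n = 2). In the first quantification the libraries of Eef1a2 overlapped those of neither Eif4e3 above it nor Rpl3l below it. In the other quantification Eif4e3 held 13.6% and 14.5% against 13.6% and 14.1% for Eef1a2, so these shares overlapped, while Rpl3l stayed lower at 10.0% and 9.18%. Gspt2 and Eif5a2 held 1.45% and 0.76%, and Rpl10l had 0 counts.

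**Figure D4:**
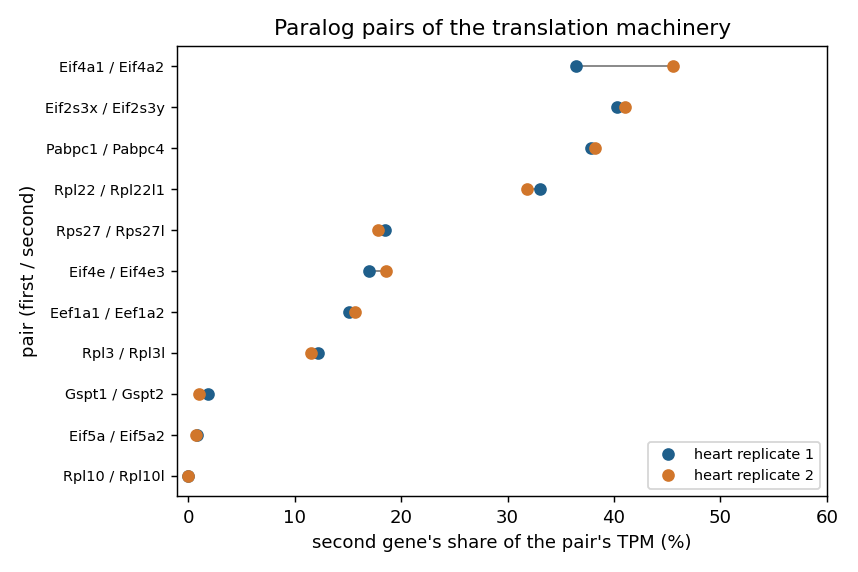
Share of the second gene (percent) in the summed TPM of each of 11 paralog pairs, with a point for each library. The Eef1a1 and Eef1a2 pair lies at 15.1% and 15.7%, between the Eif4e pair and the Rpl3 pair in the first quantification, which is the one plotted.

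The 2 libraries differed little in either gene. After TMM scaling, the log2 ratio of replicate 2 over replicate 1 was -0.04 for Eef1a1, with a counting interval of -0.05 to -0.02. For Eef1a2 it was 0.01, with an interval of -0.03 to 0.04. Neither of the 2 genes was past 1.5-fold, whereas 8.43% of 16741 genes were. Eef1a1 was lower with an interval that leaves out 1, as were 18.7% of all genes, and among genes of at least 10000 counts 28.5%. The median over all genes was 0.00. On the TPM scale the log2 ratios were -0.28 and -0.21, while the median gene moved by -0.21. Relative to that median they were -0.07 and 0.00. With 1 library for each labelled replicate and a single donor record for both, these intervals compare the libraries and not animals or conditions.

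Of the 4 eEF1B genes, 1, Eef1g, was lower in replicate 2 with an interval that leaves out 1, beside 18.7% over all genes. The other members also had log2 ratios below 0, but their intervals included no change. The median log2 ratio of the 4 was -0.08, beside 0.00 over all genes. Of the 12 other cytosolic factors, 6 were lower and 1 was higher by the same rule, with a median of -0.12, beside 18.7% lower over all genes. The gene that was higher was Eef2k, at a log2 ratio of 0.31. Gspt2 was the 1 gene past 1.5-fold, at -0.85 with 40 and 20 counts, and 1 of 12 is close to the 8.43% of all genes. None of the 4 tested methyltransferase genes and 1 of the 4 mitochondrial factors, Gfm2 at 0.13, had such an interval. Over all genes, 18.7% were higher by this rule.

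The labelled tissue was checked against its markers. Myh6, the main heart myosin of the mouse, was at 8595 and 8333 TPM and Tnnt2, cardiac troponin T, at 3110 and 3041 TPM. Cardiomyocyte markers had a median log2 ratio of 0.14 between the libraries, with 7 of 8 higher by an interval that leaves out 1, beside 18.7% higher over all genes. Marker levels of other cell types differed between the libraries. Adipocyte markers summed to 437 TPM in replicate 1 and 31.6 TPM in replicate 2, atrial markers to 1513 and 281 TPM, and neuron and Schwann cell markers to 20.2 and 4.10 TPM. Nppa, the gene of atrial natriuretic peptide, made up 753 and 116 TPM of the atrial sum. Of the 6 atrial genes, 5 were lower in replicate 2 past 1.5-fold and 1 was higher. Over all 16741 genes, 706 were lower and 706 higher by this rule. The atrial gene that was higher was Kcna5, a potassium channel gene, at a log2 ratio of 0.67. Fibroblast markers had a median of -0.39 and macrophage markers of -0.44. Their part in the Eef1a1 and Eef1a2 levels was not tested. For the other tissues known for Eef1a2, the neuronal genes Snap25 and Syt1 were at 0.08 and 0.03 TPM in replicate 1 and 0 in replicate 2. Dbh, an enzyme gene of sympathetic neurons, was at 1.05 and 0.70 TPM, and the neuronal tubulin gene Tubb3 at 0.41 and 0.21 TPM. The 11 skeletal muscle genes summed to 1456 and 1297 TPM, of which Ckm, also a heart gene, held 1360 and 1215 TPM. Acta1, which the heart also makes, was at 93.4 and 78.8 TPM. Tnni2, the fast skeletal troponin I gene, was at 1.81 and 1.23 TPM and Mylpf at 1.04 and 0.85 TPM. Myh4 and Myod1 had 0 counts in both libraries.

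**Figure D5:**
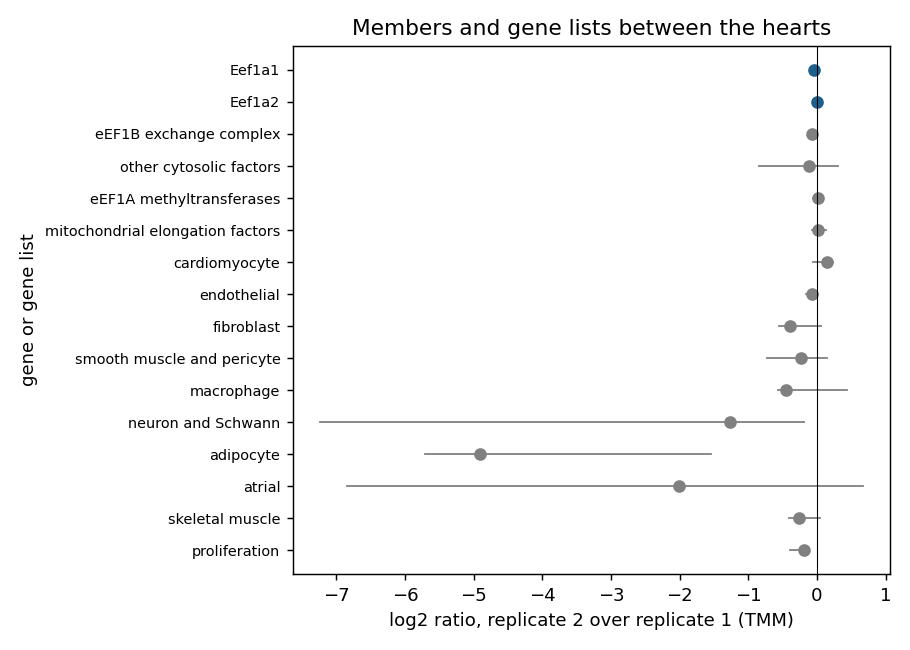
Log2 ratio of replicate 2 over replicate 1 after TMM scaling, with points and counting intervals for the 2 genes (blue), and the median with the range over genes for each list (grey). Both eEF1A genes lie near 0, while the adipocyte list has a median of -4.91 and the atrial list of -2.01.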

How the data were processed

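Total RNA was measured in 2 libraries of 1 group, heart tissue of male mice aged 10 days. The authors deposited, per the file headers, expected counts, TPM (transcript abundance scaled for length and summing to the same total in each library), FPKM, posterior means and, as score values, credibility bounds and posterior SDs for genes and transcripts, derived from transcriptome alignments per the deposited notes. They also deposited a table of estimated counts and TPM made directly from the reads, called here the other quantification. The notes name mm10 and GENCODE M21. The programs, the strand setting and the credibility level are not given in the sources used here. Rows that name no gene (26249) held 3.89 and 3 of the deposited expected counts and stayed out of library sizes.

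Expected counts were rounded, 0.5 was added, and the ratio of replicate 2 over replicate 1 was scaled with TMM (edgeR 4.0.16, R 4.3.3), with exact Clopper-Pearson 95% intervals that cover counting error only. Genes with a mean count of at least 10 were used. Alternatives were DESeq2 1.42.0 size factors, total counts, spike-in counts, no filter, the other quantification, TPM, FPKM, posterior means and leaving out each library. The calculation was tested on simulated data. Pseudogene copies were found by shared words of 31 bases (Python 3.11.15). Named were both genes, their transcripts, all members of the elongation lists, 11 paralog pairs, the 5 copies with the highest counts and the 3 genes next above and below each gene by TPM. Copies named include genes under the 50% share fixed for copies, chosen after their values were seen. The genes and lists were chosen with earlier results of these data known. Mettl21b was matched under its annotated name, Eef1akmt3.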

Additional observations from a re-analysis of the deposited data

How the results depend on the processing

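The order Eef1a1 above Eef1a2 held under every setting run. Their levels were 2014 and 323 TPM in the other quantification and 1107 and 201 in FPKM. Leaving out each library, Eef1a1 ran from 1239 to 1500 TPM, Eef1a2 from 231 to 267 TPM and their log2 ratio from 2.42 to 2.49. The Eef1a1-201 share of counts ran from 92.8% to 93.7%. The transcript share of Eef1a2 is 100% under any setting, because only 1 transcript is annotated. The log2 ratio was 2.64 in the other quantification and 2.40 with protein-coding transcripts. Alternatives chosen after seeing the data gave 2.20 and 1.91 with full-length transcripts in the first and other quantification, and 2.51 with all copies added. The Eef1a1-201 share was 83.6% by TPM and 84.4% of counts in the other quantification. Between the libraries, the log2 ratios of Eef1a1 and Eef1a2 were -0.04 and 0.01 after TMM scaling. They were -0.137 and -0.093 by total count, -0.102 and -0.058 by spike-ins and -0.28 and -0.21 by TPM. The Eef1a2 interval ran from -0.125 to -0.061 by total count and from -0.090 to -0.025 by spike-ins. Both leave out no change, unlike its interval after TMM scaling. The total count and spike-in scalings move all genes, by 0.10 for total count and 0.06 for spike-ins on the log2 scale. Past 1.5-fold, 706 genes were higher and 706 lower, against 516 and 989 by total count and 571 and 882 by spike-ins, and 652 genes were past 2-fold. Beyond these constructions the cause was not tested. No paired analysis was possible because there is 1 group. Depth was 38851510 and 37907582 expected counts, and intervals cover counting error only. Reads from CAST/EiJ alleles were counted against a C57BL/6J reference, and its effect was not tested.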

Other observations

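The annotated first exon of Eef1a1-201 has 86 bases. It holds the letters TATATAA from base 24 and CTTTTTC from base 54. The latter is the end of a pyrimidine run of 9 bases that begins at base 52. TATATAA, read in the direction of the gene, lay within the 50 bases after the start in 0.12% of 32851 RefSeq promoters. This form was counted because it had been found in Eef1a1. The share of promoters with any of the searched forms on either strand in these bases was not counted, and would be higher. Eef1a1 belongs, as background, to the messages of the translation machinery that start with a C followed by pyrimidines. The tables do not show where these transcripts start.

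Mir703, a miRNA gene at chr5:98475556-98475664 that shares 36.7% of its words with Eef1a1, had 116 and 115 counts but 384 and 359 TPM, above the level of Eef1a2. Its effective length was 10 bases in replicate 1, and the other quantification gave it 0 counts. AC133509.1, a processed pseudogene, had 802 and 744 counts in the first quantification and 63.4 and 69.0 in the other. These genes were singled out after their values were seen.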
